A study of Homo sapiens with 6 samples.

Results

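Messenger RNA of 10 genes of TGF-β, activin and BMP signaling was examined in MDA-MB-231 cells, a human line of triple-negative breast cancer (TNBC). The genes were 5 ligand genes (INHBA, INHBB, BMP4, TGFB1 and TGFB2), 2 receptor genes (TGFBR1 and TGFBR2), the inhibitor gene SMAD7 and 2 target genes (ID1 and ID3). They were taken by symbol, 10 of 41471 gene symbols in the knockdown experiment and 10 of 34157 in the drug experiment, and all 10 passed the filter on low counts in both. The set was partly selected on measured values, since INHBB and BMP4 were included for their lower counts with both hairpins, so the knockdown values of the 10 genes are descriptions without a test.

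The knockdown experiment had 3 libraries, from cells infected with lentivirus that carried a scramble shRNA (Scramble), CDK16-sh1 or CDK16-sh2 and sorted into stable lines. The drug experiment had 3 libraries, from cells given vehicle (DMSO), 1 µM or 5 µM rebastinib (Reb), a kinase inhibitor, for 48 h. All cells grew in DMEM with 10% FBS. With 1 library per condition, nothing reported here was checked against replicates.

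Ligands of this family bind pairs of type I and type II receptor kinases, which phosphorylate SMAD proteins that enter the nucleus and regulate transcription. TGF-β and activins act mainly through SMAD2 and SMAD3, and BMPs through SMAD1, SMAD5 and SMAD9. In breast epithelium TGF-β restrains proliferation, and in mesenchymal-like tumor cells it is known for its part in invasion and metastasis. Ligands are made as precursors, held in latent or antagonist-bound form outside the cell, and the pathway induces its own inhibitors.

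Starts of 4 genes are shown because the data turn on them. Among the ligand genes, INHBA had the widest change with Reb and INHBB the widest with the hairpins, and both are activin subunit genes. BMP4 was selected together with INHBB. Of the target genes ID1 and ID3, only ID1 was lower with both hairpins and higher with both Reb doses. Other target genes of the pathway, read further below, had the same directions as ID1, ID4 and TAGLN among them. Their starts are not shown. Each window holds the 250 bases before the RefSeq start on GRCh38.p14, read 5′ to 3′ on the gene's strand. Capitals mark the GC box GGGCGG and the SMAD element CAGAC on either strand, and the TATA box TATAAA on the gene's strand. Matches may overlap. For INHBA the window is chr7:41703091-41703340 on the minus strand and lies inside the span of the gene in the deposited tables, with 18 of its bases in an annotated exon. For INHBB it is chr2:120345886-120346135 on the plus strand, with no exon base. For BMP4 it is chr14:53955051-53955300 on the minus strand, the first of 3 listed starts, with no exon base. The BMP4 window, too, lies inside the annotated span of its gene. For ID1 it is chr20:31605039-31605288 on the plus strand, with 6 exon bases.
INHBA: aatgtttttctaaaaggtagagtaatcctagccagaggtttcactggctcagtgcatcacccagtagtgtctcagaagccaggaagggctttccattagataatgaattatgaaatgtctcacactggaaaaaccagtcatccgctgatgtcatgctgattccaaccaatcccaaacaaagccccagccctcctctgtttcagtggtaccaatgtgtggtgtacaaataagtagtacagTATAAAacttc
INHBB: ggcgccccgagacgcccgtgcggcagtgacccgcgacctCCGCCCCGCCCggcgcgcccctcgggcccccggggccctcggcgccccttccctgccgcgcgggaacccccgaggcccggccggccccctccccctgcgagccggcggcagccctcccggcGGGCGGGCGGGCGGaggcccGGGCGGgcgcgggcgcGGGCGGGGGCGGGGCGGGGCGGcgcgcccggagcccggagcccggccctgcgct
BMP4: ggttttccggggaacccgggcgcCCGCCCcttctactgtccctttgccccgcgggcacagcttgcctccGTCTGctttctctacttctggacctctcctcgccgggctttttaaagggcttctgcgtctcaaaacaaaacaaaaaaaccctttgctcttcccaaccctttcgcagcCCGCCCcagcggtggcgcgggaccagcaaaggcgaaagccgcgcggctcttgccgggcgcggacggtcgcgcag
ID1: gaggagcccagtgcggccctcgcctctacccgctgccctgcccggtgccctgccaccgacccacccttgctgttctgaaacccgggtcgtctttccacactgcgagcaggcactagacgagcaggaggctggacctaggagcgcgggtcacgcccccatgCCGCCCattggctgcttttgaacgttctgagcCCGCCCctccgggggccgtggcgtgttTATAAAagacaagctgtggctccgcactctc

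The INHBB window was made up of G and C to 89.6%, a higher share than in 99.97% of the 35116 RefSeq windows, and held 10 GC boxes, some of them overlapping. The INHBA window had 42.8% G and C, above 17.83% of all windows, with 1 TATA box and no GC box. BMP4 and ID1 lay between, with 63.6% and 66% G and C and 2 GC boxes each. ID1 also held 1 TATA box and BMP4 1 SMAD element. Of all windows, 42.6% held a GC box, 6.8% a TATA box and 38% a SMAD element.

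Total counts ranged from 25838443 to 31955119 in the knockdown libraries and from 37655548 to 50303269 in the Reb libraries. CDK16, the targeted gene, had 3223 counts in Scramble, 1360 in CDK16-sh1 and 846 in CDK16-sh2, which gave log2 fold changes of -1.52 (95% counting interval -1.61 to -1.43) and -1.82 (-1.93 to -1.71). With Reb its log2 fold changes were -0.14 and 0.27. The mesenchymal genes VIM and AXL were abundant in all 6 libraries and ESR1, PGR and CDH1 had at most 53 counts in any, while KRT8 had at least 16235. Of the leukocyte markers CD3E and PTPRC had at most 8 and 35 counts, both most at 1 µM Reb, and CD68 had at least 6258. Mitochondrial transcripts held 10.4% to 16.2% of the counts in the knockdown experiment, most in CDK16-sh2, and 7.19% to 16.4% in the Reb experiment, most at 5 µM. The part of this share in the results was not tested. Fold changes are of TMM-scaled CPM, that is, read counts scaled to a common library size. Dividing by library totals instead moves the median of all genes by -0.19 (log2) in CDK16-sh2 and -0.68 at 5 µM. Changes of direction under that scaling are named below for the 10 genes, but not for every other gene. CDK16, for one, was below DMSO at 5 µM under it, in counts per gene length and library total (RPKM) at 11.4 against 15.2. Intervals cover counting error only, since each condition had 1 library. They may be too narrow even for that, because several reads can stem from the same molecule.

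Of the 10 genes, 5 (INHBB, BMP4, TGFB2, TGFBR1 and ID1) were below Scramble with both hairpins beyond counting error, and INHBB in CDK16-sh2 was the widest of these differences. TGFB1 was above Scramble with both hairpins. TGFBR2 was lower with CDK16-sh1 and higher with CDK16-sh2. By sign alone, without regard to counting error, 5 members were lower with both hairpins, 2 higher with both and 3 opposite, beside 30.9%, 32.2% and 36.8% of all genes tested. The hairpins share their control, so the agreement between them is not independent.

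**Figure D1:**
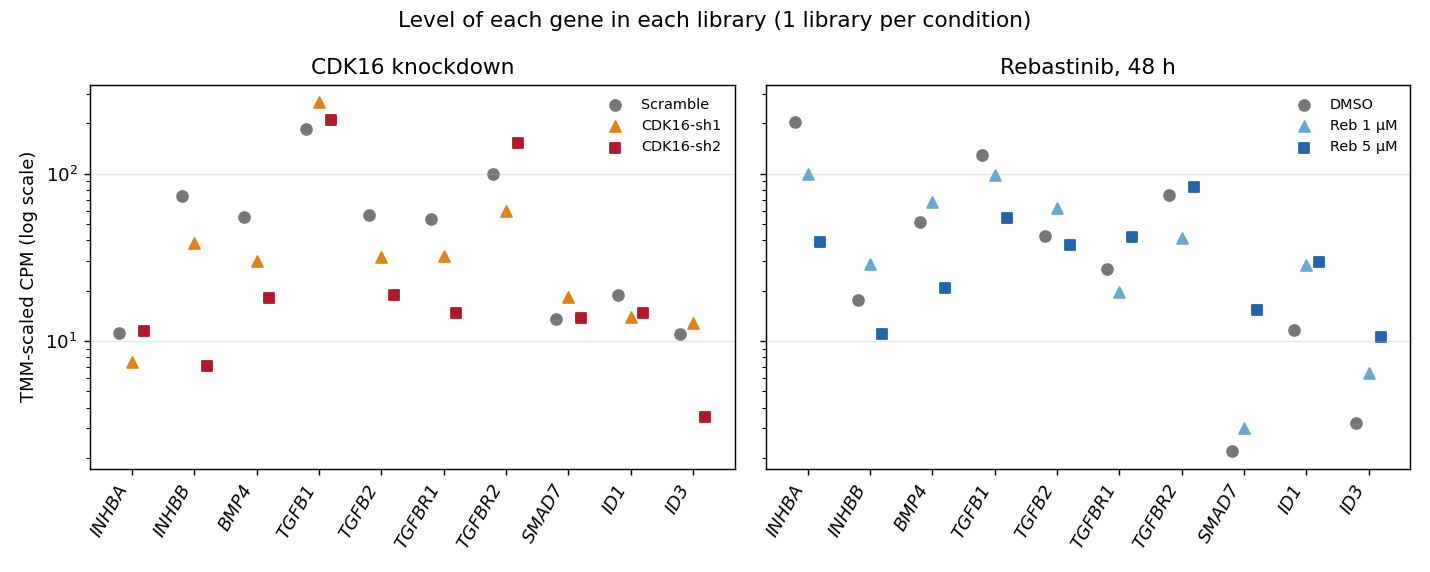
TMM-scaled CPM (log axis) of each gene in each of the 6 libraries, 1 point per library, in the knockdown experiment on the left and the Reb experiment on the right. INHBB went from 73.5 CPM in Scramble to 7.08 in CDK16-sh2, and INHBA from 204.6 CPM in DMSO to 39.0 at 5 µM.

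INHBB encodes the βB subunit of activin B and lies at chr2:120346143-120351808 on the plus strand. It had 2001 counts in Scramble, 1265 in CDK16-sh1 and 179 in CDK16-sh2. The log2 fold change was -0.94 (-1.04 to -0.84) with CDK16-sh1 and -3.36 (-3.60 to -3.15) with CDK16-sh2. Both hairpin libraries were thus below the control, and CDK16-sh2 was below CDK16-sh1 too (log2 ratio -2.43, -2.67 to -2.21).

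BMP4 encodes a BMP ligand and lies at chr14:53949736-53958761 on the minus strand. Its counts were 1509 in Scramble, 997 in CDK16-sh1 and 455 in CDK16-sh2, which gave log2 fold changes of -0.87 (-0.99 to -0.76) and -1.62 (-1.78 to -1.47). TGFB2, a TGF-β ligand gene at chr1:218346235-218444619 on the plus strand, had 1532, 1049 and 479 counts in the same order, with -0.82 (-0.94 to -0.71) and -1.57 (-1.72 to -1.42), the first of which was -0.45 without the trends on GC content and length. Control, CDK16-sh1 and CDK16-sh2 stood in the same falling order for INHBB, BMP4 and TGFB2.

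TGFB1 encodes the main TGF-β ligand and lies at chr19:41301587-41353911 on the minus strand. It had 5038 counts in Scramble, 8798 in CDK16-sh1 and 5313 in CDK16-sh2, which gave log2 fold changes of 0.53 (0.48 to 0.58) and 0.18 (0.13 to 0.24). The direction depended on the processing, since the CDK16-sh1 value was -0.013 once trends on GC content and length were removed and the CDK16-sh2 value was -0.013 at the lowest, with library totals or RPKM. TGFB1 shares 215 of its 3238 exon bases with HNRNPUL1 on the other strand, which had 19283 counts in Scramble, and whether the counting used strand is not given in the sources used here, so reads there cannot be assigned with certainty.

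INHBA encodes the βA subunit of activin A and lies at chr7:41667168-41705834 on the minus strand. It had 303 counts in Scramble, 246 in CDK16-sh1 and 288 in CDK16-sh2. The log2 fold change was -0.57 (-0.83 to -0.33) with CDK16-sh1 and 0.033 (-0.20 to 0.27) with CDK16-sh2, the latter not distinguishable from 0 at this depth and negative with library totals. The CDK16-sh1 value was -0.11 once trends on GC content and length were removed, where INHBB was at -1.30. INHBB was thus lower with both hairpins in all settings run.

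The type I receptor gene TGFBR1, at chr9:99104038-99154192 on the plus strand, encodes the kinase that phosphorylates SMAD2 and SMAD3. It had 1460 counts in Scramble, 1055 in CDK16-sh1 and 374 in CDK16-sh2, which gave log2 fold changes of -0.74 (-0.86 to -0.63) and -1.85 (-2.03 to -1.69). The type II receptor gene TGFBR2, at chr3:30606502-30694142 on the plus strand, encodes the receptor that binds TGF-β and activates the type I receptor. It had 2714, 1964 and 3831 counts, with -0.74 (-0.83 to -0.66) and 0.60 (0.53 to 0.68). Both receptor genes were below the control with CDK16-sh1, and with CDK16-sh2 TGFBR2 was above it and TGFBR1 below it. Without the trends on GC content and length, the CDK16-sh1 values were -0.30 for TGFBR1 and -0.69 for TGFBR2.

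SMAD7, at chr18:48919853-48950711 on the minus strand, encodes an inhibitory SMAD that blocks the type I receptor and is itself induced by the pathway. It had 368 counts in Scramble, 601 in CDK16-sh1 and 345 in CDK16-sh2, which gave log2 fold changes of 0.43 (0.24 to 0.62) and 0.014 (-0.20 to 0.23). Only the CDK16-sh1 library was apart from the control beyond counting error, and removing trends on GC content and length brought its value to 0.037. The CDK16-sh2 value changed sign under that setting and with library totals.

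ID1 and ID3 encode helix-loop-helix proteins without a DNA-binding region and are direct targets of BMP signaling. ID1, at chr20:31605283-31606515 on the plus strand, had 510 counts in Scramble, 460 in CDK16-sh1 and 372 in CDK16-sh2, which gave log2 fold changes of -0.42 (-0.61 to -0.24) and -0.35 (-0.55 to -0.15). ID3, at chr1:23557918-23559794 on the minus strand, had 300, 420 and 89 counts, with 0.21 (-0.0084 to 0.43) and -1.63 (-2.0 to -1.30). ID1 was below the control with both hairpins, while ID3 was low in the CDK16-sh2 library alone. Without the trends on GC content and length ID1 was just past 2-fold lower in CDK16-sh1 and at -0.53 in CDK16-sh2. The ID3 value with CDK16-sh1 turned to -0.29 when trends on GC content and length were removed.

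At the 2-fold threshold of the study's methods, no member passed in CDK16-sh1, where 6.86% of the 15295 genes tested were at least 2-fold lower and 4.33% at least 2-fold higher. In CDK16-sh2, 5 members were at least 2-fold lower (INHBB, BMP4, TGFB2, TGFBR1 and ID3), beside 7.62% of all genes, and none was higher, beside 2.2%. The split over all genes in CDK16-sh2, 1166 lower and 336 higher, was 1701 and 152 with library totals, and the members' count stayed at 5 in every alternative run. The member median was -0.66 for CDK16-sh1 and -0.96 for CDK16-sh2, against -0.0018 and 0.018 over all genes. These shares and medians follow in part from how the genes were selected.

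Set directly against each other, the hairpin libraries differed at least 2-fold for 4 members, INHBB, TGFBR1, ID3 (log2 ratio -1.83, -2.20 to -1.52) and TGFBR2 (1.35, 1.27 to 1.43), beside 15.2% of all genes. ID1 did not differ between them beyond counting error (0.077, -0.12 to 0.28). Fold changes of all genes varied with GC content, with r = 0.478 across genes for CDK16-sh1 and r = 0.131 for CDK16-sh2 (n = 15295, of which 84.6% had a GC value). The transcripts of INHBA, TGFB2 and TGFBR1 are 38.9% to 39.1% G and C, and those of TGFB1, SMAD7, ID1, ID3 and INHBB 56.7% to 63.5%. Without the trends on GC content and length, 3 members were at least 2-fold lower in CDK16-sh1, INHBB (-1.30), BMP4 (-1.16) and ID1, the last at the threshold itself.

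**Figure D2:**
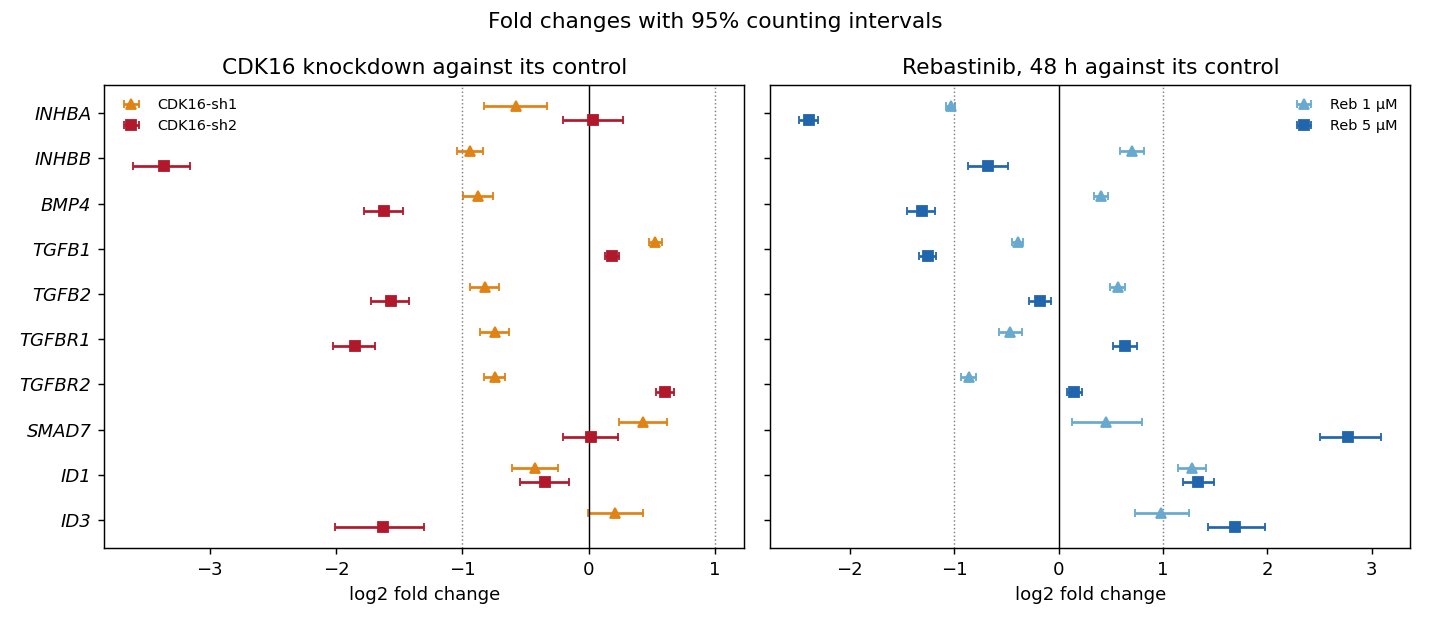
Log2 fold change of each gene against its own control, with CDK16-sh1 and CDK16-sh2 on the left and 1 µM and 5 µM Reb on the right. Bars are 95% counting intervals, dotted lines mark 2-fold, and the 2 treated libraries of a panel share 1 control. INHBB in CDK16-sh2 lies at -3.36, and SMAD7 at 5 µM Reb at 2.77.

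The Reb experiment was not used to select the genes by their values, although the whole set was chosen with earlier results of these data known. INHBA and TGFB1 were below DMSO at both doses beyond counting error, SMAD7, ID1 and ID3 were above it at both doses, and INHBB, BMP4, TGFB2, TGFBR1 and TGFBR2 lay on opposite sides of DMSO at 1 and 5 µM. Of all genes, 30.9% were lower at both doses, 29.3% higher at both and 39.8% opposite.

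INHBA had 11930 counts in DMSO, 5919 at 1 µM and 1055 at 5 µM. The log2 fold change was -1.03 (-1.08 to -0.99) at 1 µM and -2.39 (-2.48 to -2.30) at 5 µM, so the transcript was lowest at the higher dose. TGFB1 had 7508, 5815 and 1462 counts, with -0.39 (-0.44 to -0.34) and -1.25 (-1.33 to -1.17).

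INHBB had 1026 counts in DMSO, 1699 at 1 µM and 298 at 5 µM, log2 fold changes of 0.70 (0.59 to 0.82) and -0.67 (-0.87 to -0.49). BMP4 had 2996, 4036 and 559 counts, with 0.41 (0.34 to 0.48) and -1.31 (-1.45 to -1.18). TGFB2 had 2464, 3708 and 1011 counts, with 0.57 (0.49 to 0.64) and -0.18 (-0.28 to -0.071). For these 3 ligand genes the 1 µM library was above DMSO and the 5 µM library below it in all settings run. The size at 5 µM depended on the setting, from -1.36 with library totals to -0.25 without the trends on GC content and length for INHBB, and from -0.87 to -0.11 over all settings for TGFB2. They are also the 3 ligand genes that were below Scramble with both hairpins. INHBB and BMP4 were selected for that, so nothing is drawn from the match. Of all genes, 39.8% lay on opposite sides of DMSO at 1 and 5 µM.

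TGFBR1 had 1573 counts in DMSO, 1160 at 1 µM and 1135 at 5 µM, log2 fold changes of -0.46 (-0.57 to -0.35) and 0.64 (0.53 to 0.75). TGFBR2 had 4343, 2428 and 2237 counts, with -0.86 (-0.93 to -0.79) and 0.15 (0.077 to 0.22). Both receptor genes were below DMSO at 1 µM and above it at 5 µM with TMM scaling. With library totals the 5 µM values turned to -0.053 for TGFBR1 and -0.54 for TGFBR2, so the direction at 5 µM rests on the scaling.

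SMAD7 had 128 counts in DMSO, 179 at 1 µM and 412 at 5 µM, log2 fold changes of 0.45 (0.12 to 0.80) and 2.77 (2.51 to 3.09). It was the member with the widest change at 5 µM and had the lowest counts of the 10 genes in the DMSO library. ID1 had 680, 1676 and 799 counts, with 1.27 (1.15 to 1.41) and 1.34 (1.19 to 1.49). ID3 had 188, 380 and 284 counts, with 0.98 (0.74 to 1.25) and 1.69 (1.43 to 1.98). The inhibitor gene and both ID genes were above DMSO at each dose, and they stayed above it under every alternative run, with lowest values at 5 µM of 1.96 for SMAD7, 0.65 for ID1 and 0.98 for ID3.

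At 1 µM, 1 member was at least 2-fold lower (INHBA), beside 1.92% of the 15655 genes tested, and 1 at least 2-fold higher (ID1), beside 1.28%. At 5 µM, 3 members were at least 2-fold lower (INHBA, BMP4 and TGFB1), beside 27.2% of all genes, and 3 at least 2-fold higher (SMAD7, ID1 and ID3), beside 23.6%. The members' shares at 5 µM were thus close to the background. With library totals the split over all genes at 5 µM went from 4254 lower and 3695 higher to 6792 and 1835, and that of the members from 3 and 3 to 4 and 2. Without the trends on GC content and length 2 members were lower at 5 µM, since TGFB1 was then at -0.74. The member median was 0.43 at 1 µM and -0.013 at 5 µM, against 0.0016 and -0.070 over all genes.

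The doses differed at least 2-fold for 6 members, beside 48.6% of all genes. Relative to 1 µM, the 5 µM library was lower for INHBA (-1.36, -1.45 to -1.26), INHBB (-1.38, -1.56 to -1.20) and BMP4 (-1.72, -1.85 to -1.59). It was higher for SMAD7 (2.32, 2.08 to 2.60), TGFBR1 (1.10, 0.98 to 1.22) and TGFBR2 (1.01, 0.93 to 1.10). ID1 was the 1 gene for which the doses did not differ beyond counting error (0.063, -0.060 to 0.19).

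With both doses taken as 1 group against DMSO, the spread is the difference between the doses. The quasi-likelihood test of edgeR, with p-values adjusted by Benjamini and Hochberg, then called 0.00639% of all genes lower and 0.0703% higher, and none of the 10 members (adjusted p = 1 for each). The fitted log2 changes farthest from 0 were those of SMAD7 (2.05, unadjusted p = 0.135) and INHBA (-1.56, unadjusted p = 0.183). No member had an unadjusted p under 0.05, nor did any with DESeq2, where the lowest was 0.0832 for SMAD7. When dose entered as a linear term on the log2(dose + 1) scale, 11.1% of all genes were called lower and 13.3% higher. In that fit INHBA fell with dose (-2.38 from 0 to 5 µM, adjusted p = 0.00475, edgeR) and SMAD7 rose (2.88, adjusted p = 0.00143, edgeR). The other 8 members were not called, with edgeR adjusted p-values from 0.0782 for ID3 to 0.769 for TGFBR2. The 3 libraries leave 1 degree of freedom for the spread in either fit. The share of members called by the linear fit was close to that of all genes, and that fit was run with TMM scaling only.

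The control libraries of the experiments differed for several members. On the authors' RPKM scale, which allows genes of different length to be compared, Scramble had TGFB1 highest at 60.2, then INHBB at 24.2, TGFBR2 at 22.3, BMP4 at 18.9, ID1 at 16.0, TGFB2 at 11.5, TGFBR1 at 8.26, ID3 at 6.46, SMAD7 at 3.86 and INHBA at 1.41. DMSO had TGFB1 at 46.1, INHBA at 28.6, BMP4 at 19.3, TGFBR2 at 18.4, ID1 at 10.96, TGFB2 at 9.51, INHBB at 6.37, TGFBR1 at 4.57, ID3 at 2.08 and SMAD7 at 0.689. Without replicates no spread is known for neighbours in these orders. INHBA was 20.2 times higher in DMSO than in Scramble, and SMAD7, INHBB and ID3 were 5.6, 3.8 and 3.11 times higher in Scramble, while BMP4 was nearly equal. Of 14414 genes, 0.104% were at least 16-fold higher in DMSO and 1.38% at least 4-fold lower. The tables were normalized separately, and vehicle, virus, sorting and sequencing cannot be told apart between these controls.

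**Figure D3:**
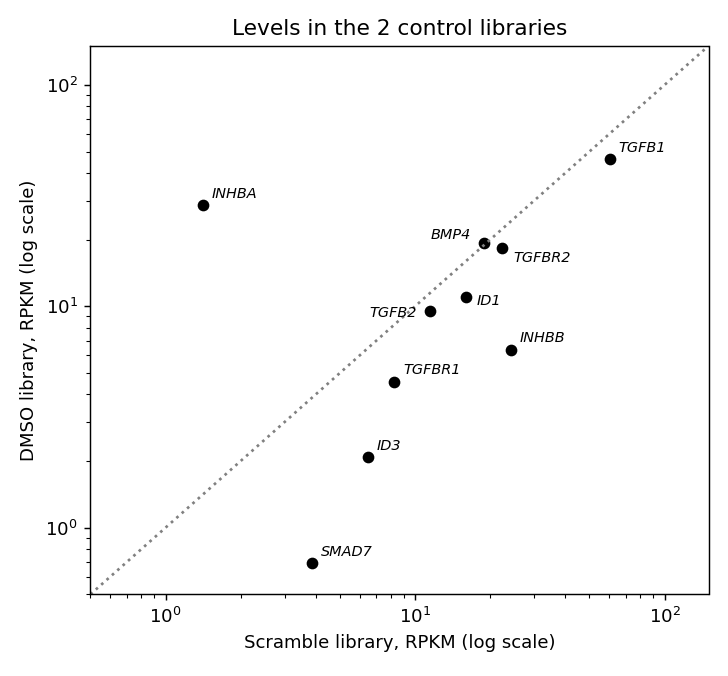
RPKM of each gene in the Scramble library (horizontal, log axis) and in the DMSO library (vertical, log axis), 1 point per gene, with the dotted line at equal values. INHBA lies far above the line at 1.41 and 28.6, and SMAD7 farthest below it at 3.86 and 0.689.

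Transcripts that overlap or lie opposite to the members were read as well. TGFB2-AS1, an antisense transcript that shares no exon base with TGFB2, had 321 counts in Scramble, 152 in CDK16-sh1 and 70 in CDK16-sh2, which gave log2 fold changes of -1.34 (-1.64 to -1.07) and -2.06 (-2.48 to -1.71). With Reb it had 1118, 1877 and 366 counts, with 0.72 (0.62 to 0.83) and -0.50 (-0.68 to -0.33). TGFB2-AS1 stood on the same side of the control as TGFB2 in all 4 treated libraries. TGFB2-OT1, whose 1371 exon bases all lie within TGFB2 on the same strand, had 381, 244 and 126 counts in the knockdown experiment, and 167, 324 and 99 in the Reb experiment, so its reads and those of TGFB2 are uncertain. At 5 µM TGFB2-OT1 was at 0.35 (-0.020 to 0.72) and TGFB2 at -0.18. On the RPKM scale, which divides by library totals, both were below DMSO at 5 µM. TGFB2-OT1 was at 2.42 in DMSO and 1.92 at 5 µM, and TGFB2 at 9.51 and 5.21, so their opposite sides rest on the scaling. INHBA-AS1 had at most 15 counts in any library.

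Over the rest of the pathway, 104 genes in 7 lists by role were read. LTBP2, SKIL, SMAD6 and BAMBI each stand on more than 1 list but count once in the totals over all lists. Of the 104 genes, 60 passed the filter in the knockdown experiment and 62 in the Reb experiment. In CDK16-sh1, 4 were at least 2-fold lower and 6 higher, beside 6.86% and 4.33% of all genes, with a median of 0.16. In CDK16-sh2, 12 were lower and 2 higher, beside 7.62% and 2.2%, with a median of -0.20. At 1 µM Reb 4 were lower and 3 higher, beside 1.92% and 1.28%, with a median of -0.091. At 5 µM 15 were lower and 21 higher, beside 27.2% and 23.6%, with a median of 0.029. With library totals this split was 25 and 11, and that over all genes 6792 and 1835. With both hairpins as 1 group, edgeR and DESeq2 called 0 of these genes, and 3 and 0 had an unadjusted p under 0.05. With both doses as 1 group they also called 0, and 1 and 2 had such a p, while with dose as a linear term edgeR called 17 of 62, beside 11.1% of all genes called lower and 13.3% called higher by that fit, a share close to the background.

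**Figure D4:**
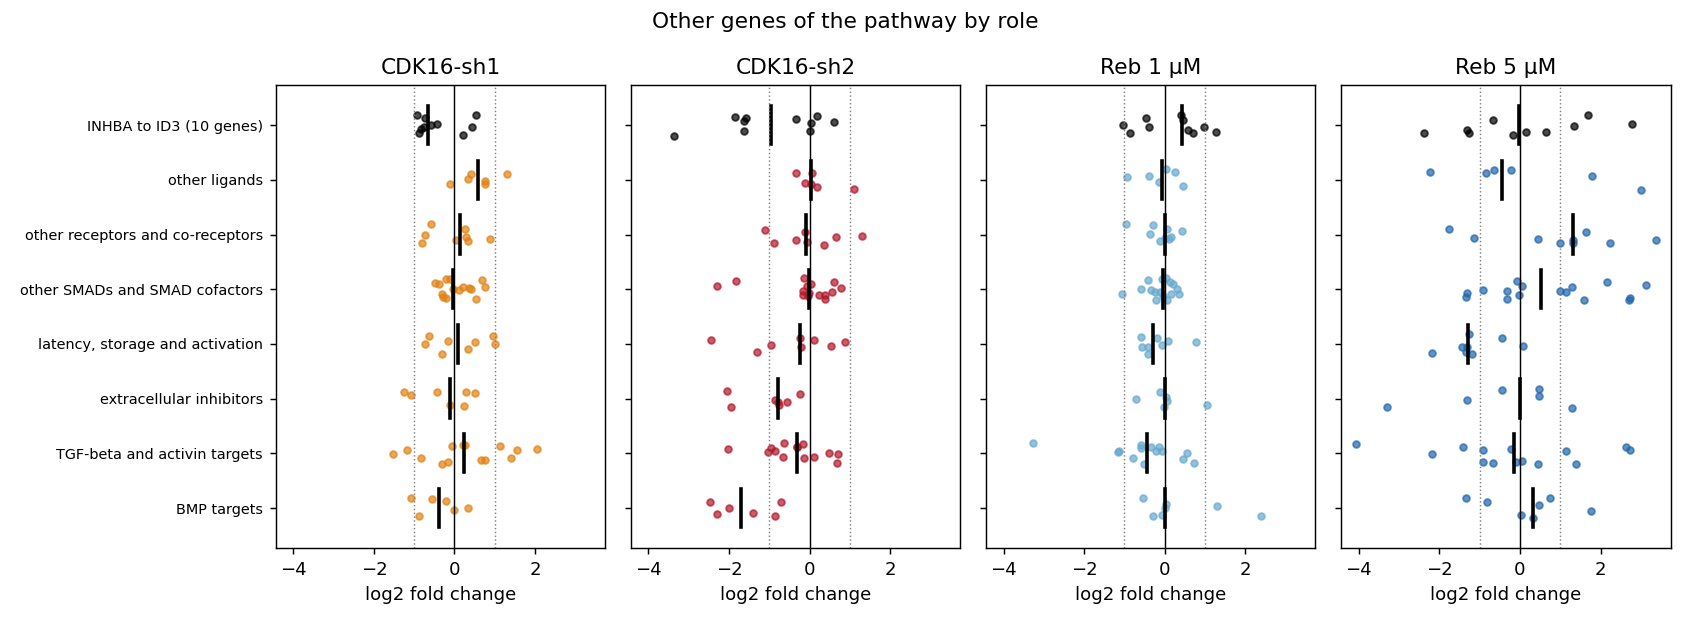
Log2 fold changes of the 10 genes (black, top row) and of the other pathway genes that passed the filter, by role, in the 4 treated libraries. Each point is 1 gene, vertical bars are medians and dotted lines mark 2-fold. LTBP2, SKIL, SMAD6 and BAMBI stand on more than 1 list and are drawn in each. BMP targets lie lowest in CDK16-sh2, with a median of -1.71, and the other receptors highest at 5 µM Reb, with a median of 1.31.

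BMP targets were the list with the lowest median in CDK16-sh2, -1.71 over 6 genes against 0.018 over all genes. Of the 6, 4 were at least 2-fold lower, beside 7.62% of all genes. The 4 were ATOH8 (-2.47), SMAD6 (-2.30), an inhibitory SMAD gene, ID4 (-2.0), a relative of ID1 and ID3, and MSX2 (-1.41), the last on 17 counts. In CDK16-sh1 the list median was -0.38, ID4 was at -0.87, SMAD6 at -0.20 and ATOH8 above its control at 0.34. With Reb, ID4 was at 1.30 (1 µM) and 0.74 (5 µM), on the same side of the control as ID1 and ID3, SMAD6 at -0.065 and -1.34, and ATOH8 at 2.39 and 1.76, on 18 counts in DMSO. The list medians with Reb were 0.013 and 0.33, the latter -0.35 with library totals. GATA2 lay within 0.72 of its control in all 4 treated libraries.

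Among TGF-β and activin targets, 14 passed the filter in each experiment. In CDK16-sh1, 2 were at least 2-fold lower and 4 higher, beside 6.86% and 4.33% of all genes, with a median of 0.24. In CDK16-sh2, 2 were lower and none higher, beside 7.62% and 2.2%, with a median of -0.31. BHLHE40, a transcriptional repressor gene, was at 0.66 and 0.68 with the hairpins, and TGFBI, a matrix protein gene, at -1.53 and -0.30. TAGLN, which encodes an actin-binding protein, was at -0.31 and -0.95 with the hairpins and at 0.72 and 2.63 with Reb. With Reb, 3 were lower and none higher at 1 µM (median -0.44), beside 1.92% and 1.28% of all genes. At 5 µM, 3 were lower and 4 higher (median -0.15), beside 27.2% and 23.6%, so these shares were close to the background. IL11, a cytokine gene, had 3139 counts in DMSO, 326 at 1 µM and 86 at 5 µM, log2 fold changes of -3.28 and -4.06. CTGF, a matrix-associated growth factor gene, was at -1.15 and -0.92.

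Of the extracellular inhibitors, all 7 that passed the filter were below Scramble in CDK16-sh2, with a median of -0.79 against 0.018 over all genes. Of the 7, 2 were at least 2-fold lower, beside 7.62% of all genes. In CDK16-sh1, 4 of 7 were below Scramble, with a median of -0.12 against -0.0018 over all genes. Of the 7, 2 were at least 2-fold lower there, beside 6.86% of all genes. The BMP antagonist genes CHRDL1 and TWSG1 were at -0.44 and -1.25 in CDK16-sh1 and at -0.77 and -0.56 in CDK16-sh2, and BMPER at -0.12 and -1.95. With Reb, NOG, which encodes the BMP antagonist noggin, had 1914 counts in DMSO, 4023 at 1 µM and 2178 at 5 µM, log2 fold changes of 1.05 and 1.29. FST, which encodes the activin-binding follistatin, was at -0.73 and -0.44, and BMPER at -0.11 and -3.30. In this list 6 genes passed the filter with Reb, with medians of 0.00021 and 0.011, the latter -0.68 with library totals.

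Latency, storage and activation genes had medians of 0.085 and -0.23 with the hairpins and -0.30 and -1.29 with Reb, each over 8 genes. At 5 µM 6 of the 8 were at least 2-fold lower, beside 27.2% of all genes. With library totals 7 were, beside 6792 of the 15655 genes tested. THBS1, which encodes thrombospondin 1, an activator of latent TGF-β, had 25745 counts in Scramble, 20079 in CDK16-sh1 and 4415 in CDK16-sh2, which gave log2 fold changes of -0.64 and -2.44, and was at -0.41 and -1.33 with Reb. FURIN, a protease that cleaves ligand precursors, was at 1.00 and 0.87 with the hairpins and at -0.56 and -1.45 with Reb. ITGAV, an integrin gene, was at -0.73 and -0.97 with the hairpins. LTBP2 was at -0.60 and -2.18 with Reb.

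The other receptors and co-receptors had medians of 0.15 and -0.10 with the hairpins over 8 genes. ACVR2B, an activin type II receptor gene, had 258, 577 and 592 counts, log2 fold changes of 0.88 and 1.30. TGFBR3, the co-receptor betaglycan, was at -0.81 and -1.11, and the BMP receptor gene BMPR1A at -0.72 and -0.89. With Reb the medians were -0.0017 and 1.31 over 9 genes, 5 of which were at least 2-fold higher and 2 lower at 5 µM, beside 23.6% and 27.2% of all genes. With library totals 2 were at least 2-fold higher, beside 1835 of the 15655 genes tested, and the median was 0.62. ACVR1, a type I receptor gene, was at 0.16 and 2.24, and BMPR1A at 0.050 and 0.45.

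The other SMADs and SMAD cofactors had medians of -0.048 and -0.014 with the hairpins over 15 genes and of -0.051 and 0.52 with Reb over 16, the latter -0.16 with library totals. SMAD5, a mediator of BMP signals, had 975, 976 and 252 counts with the hairpins, log2 fold changes of -0.27 and -1.84, and 1209, 1508 and 4920 counts with Reb, 0.29 and 3.13. SMAD3 was at -0.59 and -0.32 with Reb, and SKI, a corepressor gene, at -0.41 and -0.33. ZFYVE9, which encodes a SMAD anchor, was at 0.41 and 0.62 with the hairpins, and TGIF2, a corepressor gene, at 0.54 and 0.38. Of the other ligands, 6 of the 26 listed symbols passed the filter in the knockdown experiment, with medians of 0.58 and 0.046 (the latter -0.14 with library totals), and 6 of 19 in the Reb experiment, with medians of -0.058 and -0.44. GDF11 was at -0.12 with both hairpins, and AMH at 0.75 and 0.038.

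With dose as a linear term, edgeR called lower IL11 (-3.97, adjusted p = 1.65e-05), BMPER (-3.52, adjusted p = 0.00248), GDF11 (-2.41, adjusted p = 0.0123) and LTBP2 (-2.22, adjusted p = 0.0122) among the pathway genes. The other 13 were called higher, namely the receptor genes ACVR2A (3.55), ACVR1 (2.34), ACVR1B (1.75) and TGFBR3 (1.43), and SMAD5 (3.24), AMH (3.20), JUNB (2.90), SMURF1 (2.87), USP15 (2.80), TAGLN (2.68), STRAP (2.24), GDF9 (1.90) and ZFYVE9 (1.64). These edgeR adjusted p-values for higher genes ran from 5.76e-05 for SMAD5 to 0.0476 for TGFBR3. A call by this fit does not mean a graded change with dose. At 1 µM JUNB was at -1.15, and AMH (-0.38), TGFBR3 (-0.36), SMURF1 (-0.35), ACVR1B (-0.30), GDF9 (-0.14) and ACVR2A (-0.12) were also below DMSO. The rest of the genes called higher were above DMSO at 1 µM, by up to 0.72 for TAGLN. GDF11, called lower, was at 0.026 there.

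The genes nearest to INHBB over its 4 log2 fold changes, by Euclidean distance among 10554 genes, were ILDR2 (distance 0.667), KIF1C (0.806) and SDPR (0.811). ILDR2 was at -0.75 and -2.74 with the hairpins and at 0.62 and -0.79 with Reb. The genes nearest to BMP4 were SLIT2 (0.208), HLTF (0.399) and PHF6 (0.455). SLIT2, a secreted guidance factor gene, was at -0.91 and -1.50 with the hairpins and at 0.26 and -1.40 with Reb. The 4 values of a gene share 2 control libraries.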

How the data were processed

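RNA-seq libraries of MDA-MB-231 cells were analysed, 1 per condition. The authors deposited raw read counts per gene symbol, without normalization, and RPKM, which equal these counts over gene length and library total. Per the labels' processing notes, Trimmomatic, featureCounts, Subread 1.5.1 and GRCh38 were used on reads of a stranded mRNA kit. The aligner and annotation are not given in the sources used here.

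The deposited counts were filtered at a mean of 1 CPM per experiment and scaled by TMM within each experiment, in R 4.3.3 with edgeR 4.0.16 and a prior count of 2. Counting intervals (95%) are by Clopper and Pearson, from how the reads of a gene divide between 2 libraries. Each experiment was tested with edgeR's quasi-likelihood test, with both treated libraries as 1 group, Benjamini-Hochberg adjustment over all genes, an adjusted p threshold of 0.05 and a fold threshold of 2. The 1-group test was also run on simulated counts in which both treated libraries changed alike, unlike the doses here. The linear dose fit was not simulated. No conclusion is drawn from the simulation. DESeq2 1.42.0, library totals, RPKM with 0.1 added, other filters, a prior count of 0.5, removal of GC and length trends, removal of mitochondrial transcripts and a linear dose term were alternatives. In the knockdown experiment, 0 genes were called in either direction by edgeR (382 had an unadjusted p under 0.05) and 0 by DESeq2 (233).

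All 10 members were named. From each pathway list and experiment, up to 3 genes were named that had a mean of at least 5 CPM and lay on 1 side of the control in both treated libraries, in order of the smaller of their absolute log2 changes, and other pathway genes were named after their values were seen. The members and lists were chosen with earlier results of these data known. Whether any library came from more than 1 culture is not stated. Promoter windows are from RefSeq, and GC content is that of the longest GENCODE transcript.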

Additional observations from a re-analysis of the deposited data

Results flagged for a closer look

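TGFBR2 lay on opposite sides of its control with the hairpins, at -0.74 for CDK16-sh1 and 0.60 for CDK16-sh2 (log2 fold change, 1 library each). With Reb, 5 genes lay on opposite sides of DMSO at 1 µM and 5 µM. INHBB was at 0.70 and -0.67, BMP4 at 0.41 and -1.31, TGFB2 at 0.57 and -0.18, TGFBR1 at -0.46 and 0.64, and TGFBR2 at -0.86 and 0.15. With 1 library per condition the differences were not tested. By sign alone 3 members lay on opposite sides with the hairpins and 5 with the doses, beside 36.8% and 39.8% of all genes. With library totals the opposite signs of TGFBR1 and TGFBR2 between the doses were lost, at -0.053 and -0.54 for 5 µM.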

How the results depend on the processing

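No paired analysis was possible because each condition had 1 library, and for the same reason no library could be left out. Each log2 fold change of a member was computed under 9 alternatives, 1 of which, TMM factors from all symbols, was chosen after seeing the data. Values that moved past the counting interval came from few settings. Removing GC and length trends moved 9 of the 10 members in CDK16-sh1 (all but TGFBR2), 1 in CDK16-sh2, 7 at 1 µM and 8 at 5 µM. Library totals moved 0, 5, 2 and 10 in the same order, RPKM 0, 4, 2 and 10, and TMM over all symbols 8 at 5 µM, and the other alternatives moved none. Signs changed for TGFB1 and ID3 in CDK16-sh1 (GC and length trends removed), for INHBA, TGFB1 and SMAD7 in CDK16-sh2 and for TGFBR1 and TGFBR2 at 5 µM (library totals or RPKM). SMAD7 in CDK16-sh2 also changed sign without GC and length trends, and TGFBR2 at 5 µM with TMM over all symbols.

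The count of members at least 2-fold lower in CDK16-sh1 went from 0 to 3 without GC and length trends. At 1 µM it went from 1 to 0 with library totals or RPKM, while the count higher went to 2 with either and without the trends. At 5 µM the count higher went from 3 to 1 with RPKM. For the 7 pathway lists, leaving out the filter gave 7 lower in CDK16-sh1, 5 higher in CDK16-sh2, 8 lower and 9 higher at 1 µM, and 23 lower at 5 µM. The count higher in CDK16-sh2 was 1 with library totals, with a mean of 5 CPM or without the trends, and 0 with RPKM. At 5 µM the lists gave 25 lower with library totals or RPKM and 9 without the trends, and 11 and 10 higher with library totals and RPKM.

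Over all genes, without a filter, 2666 were lower and 2232 higher for CDK16-sh1, 3222 and 1897 for CDK16-sh2, 2249 and 2440 at 1 µM, and 7405 and 9042 at 5 µM. With a mean of at least 5 CPM these were 648 and 371 for CDK16-sh1, 707 and 185 for CDK16-sh2, and 122 and 42 at 1 µM, fewer genes being tested. Without GC and length trends CDK16-sh1 had 605 and 248. Library totals and RPKM gave 152 and 123 higher in CDK16-sh2, 6792 and 6490 lower at 5 µM, and 1835 and 1734 higher. With both doses as 1 group, edgeR's 1 lower and 11 higher genes became 0 and 0 with library totals and 0 and 3 without a filter. DESeq2 called 4 lower, and the linear dose term 1744 lower and 2088 higher. Except where a construction is named, the cause was not tested. Depth limits the genes with few counts most: the interval of SMAD7 at 1 µM, on 128 and 179 counts, ran from 0.12 to 0.80.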

Other observations

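Some other genes of the pathway differed between the control libraries far more than most members. These were chosen after their values were seen. CHRDL1, a BMP antagonist gene, had 1924 counts and an RPKM of 19.0 in Scramble against 14 counts and 0.071 in DMSO. MSX1, a homeobox gene that BMP signals induce, had 0 counts in all 3 knockdown libraries and 277, 194 and 72 counts in DMSO, 1 µM and 5 µM Reb. GDF15, a divergent ligand gene of the family, had 17 counts in Scramble and 300 in DMSO. Levels across the experiments come from tables that were normalized separately, and the cause was not tested.

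The TGF-β target genes JUNB and IL11 and the inhibitor gene FST lay on opposite sides of Scramble with the hairpins. JUNB, an AP-1 subunit gene, had 721 counts in Scramble, 3638 with CDK16-sh1 and 600 with CDK16-sh2 (2.06 and -0.16 as log2 fold changes). IL11 had 655, 2311 and 333 counts (1.54 and -0.87). The follistatin gene FST had 883, 1536 and 196 counts (0.52 and -2.05). These differences between the hairpins have no replicate check.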
